A study of Mus musculus with 4 samples.

Results

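The matrix metalloproteinases (MMPs) and their tissue inhibitors (TIMPs) were followed in 4T1, a mouse mammary carcinoma cell line of epithelial cells, by RNA sequencing. The set holds 10 genes picked by symbol, 7 MMP genes (Mmp2, Mmp3, Mmp9, Mmp10, Mmp13, Mmp14 and Mmp15) and 3 TIMP genes (Timp1, Timp2 and Timp3), among 21840 genes in the deposited table. The 4 libraries came from wild-type 4T1 cells grown in the same medium, 2 treated with phosphate-buffered saline (PBS) and 2 with recombinant IL-17A (rIL17), with no dose or time named in the labels used here. Since the labels do not tie the 2 libraries of a group to separate cultures, every p-value below measures the spread between libraries alone, and that spread may be technical.

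MMPs are zinc-dependent endopeptidases that are made as inactive proenzymes and cut collagens, laminins, fibronectin and other proteins of the extracellular matrix and the cell surface. Collagenases open fibrillar collagen, gelatinases cut denatured collagen and basement membrane collagen, stromelysins have a broad range of substrates and can activate other MMPs, and the membrane-type enzymes act at the cell surface. TIMPs bind to the active site and block it. In tumors MMPs are studied for their part in invasion and in the release of growth factors from the matrix, and several MMP genes are known targets of IL-17A in epithelial cells and fibroblasts.

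Of the 10 genes, 8 were abundant enough to test, and 3 of these rose with rIL17: the collagenase gene Mmp13, the gelatinase gene Mmp9 and the stromelysin gene Mmp3. Mmp13 rose 4.05-fold, Mmp9 1.81-fold and Mmp3 1.36-fold. No member was called lower. These 3 calls depend on the filter on low counts: with a minimum mean of 1 normalized count in a group, limma called 0 genes in all, 2642 having an unadjusted p below 0.05, and the members' fold changes were the same. Over all 12515 genes tested, 78 (0.623%) were called higher and 23 (0.184%) lower, 0.807% together. A gene was called at an adjusted p below 0.05 in limma, a linear model with a variance shared between genes of like abundance, with Benjamini-Hochberg adjustment over all genes tested. The median log2 fold change was 0.25 over the 8 tested members and -0.003 over all genes tested.

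Levels are given as normalized counts, the deposited values, which are read counts divided by a scaling factor close to 1 for each library. The libraries held 17511450 to 17970104 reads assigned to genes. The libraries differed along the GC content of transcripts, PBS replicate 2 most. Among the 2469 tested genes with a GC content of 40 to 45%, the median log2 difference of PBS replicate 2 from PBS replicate 1 was -0.22, that of rIL17 from PBS was 0.19, and that of rIL17 from PBS replicate 1 alone was 0.07. Among the 2272 genes at 55 to 60%, these medians were 0.08, -0.06 and -0.02. Among the 729 genes under 40% they were -0.47, 0.54 and 0.29, so rIL17 also lay apart from PBS replicate 1 there. Values without PBS replicate 2 are therefore given beside the called members.

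The promoters of Mmp13, Mmp3 and Mmp10 are shown because these members lie in 1 cluster of MMP genes on chromosome 9 and because 2 of them rose. Each window runs from 250 bases before to 50 bases after the RefSeq start (GRCm38.p6) and is printed 5′ to 3′ on the gene's strand. Capitals mark matches to the motifs searched on both strands: AP-1 (TGANTCA), C/EBP (TTGCNNAA), NF-kB (GGG and CC with any 5 bases between them), ETS (CAGGAAG or ACCGGAAG) and the TATA box (TATAAA).
Mmp13, chr9:7272264-7272563, plus strand: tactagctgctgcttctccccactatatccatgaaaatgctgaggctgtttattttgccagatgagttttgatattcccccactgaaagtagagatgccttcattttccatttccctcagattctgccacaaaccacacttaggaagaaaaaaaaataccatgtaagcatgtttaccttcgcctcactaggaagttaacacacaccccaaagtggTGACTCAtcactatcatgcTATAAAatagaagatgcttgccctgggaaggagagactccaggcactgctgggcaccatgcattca
Mmp3, chr9:7445572-7445871, plus strand: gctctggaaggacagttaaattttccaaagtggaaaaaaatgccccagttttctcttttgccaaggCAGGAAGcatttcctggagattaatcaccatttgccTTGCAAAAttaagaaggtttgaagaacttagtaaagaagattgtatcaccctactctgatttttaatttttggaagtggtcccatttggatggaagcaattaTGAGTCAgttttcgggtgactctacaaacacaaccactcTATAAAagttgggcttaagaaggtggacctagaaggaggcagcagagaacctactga
Mmp10, chr9:7502092-7502391, plus strand: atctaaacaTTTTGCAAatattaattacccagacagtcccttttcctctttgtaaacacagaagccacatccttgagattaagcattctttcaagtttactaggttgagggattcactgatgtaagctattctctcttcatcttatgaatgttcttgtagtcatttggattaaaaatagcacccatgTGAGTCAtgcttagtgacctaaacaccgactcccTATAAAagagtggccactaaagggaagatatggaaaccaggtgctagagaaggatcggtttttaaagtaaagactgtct
All 3 windows hold an AP-1 match and a TATA match upstream of the start. The AP-1 match begins 35 bases before the start in Mmp13 (TGACTCA), 46 bases before it in Mmp3 (TGAGTCA) and 63 bases before it in Mmp10 (TGAGTCA). The TATA match begins 16, 7 and 29 bases before the start. Mmp3 and Mmp10 also hold a C/EBP match, and Mmp3 an ETS match. None of the 3 windows holds these NF-kB letters.

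Windows were matched for 8 of the 10 members, all but Mmp2 and Mmp9. None of the other 5 windows, those of Mmp14, Mmp15, Timp1, Timp2 and Timp3, holds an AP-1, C/EBP or TATA match, and all 5 hold NF-kB letters. The windows of Timp1 and Timp3 also hold ETS letters. Only the exact letters were searched, so variant sites would be missed. Among 32851 promoter windows of the same length, 7.81% hold the AP-1 letters, 10.8% the C/EBP letters, 13.6% the TATA letters, 15.2% the ETS letters and 50.8% the NF-kB letters. The promoter windows also differ in base composition. Their GC content is 43.7% for Mmp13, 40% for Mmp3 and 37.7% for Mmp10, against 55% to 68.7% for the other 5. A match describes the sequence and is not a measured binding site.

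Among the collagenase genes, Mmp13 (ENSMUSG00000050578, mm10 chromosome 9, 7272514 to 7283331, plus strand) encodes collagenase-3, which cuts fibrillar collagens. PBS replicate 1 had 442.5 normalized counts and PBS replicate 2 had 295.3, against 1589.3 in rIL17 replicate 1 and 1402.1 in rIL17 replicate 2. Both rIL17 libraries lay far above both PBS libraries, and the log2 difference of PBS replicate 2 from PBS replicate 1 was -0.58. The means were 368.9 ± 104 in PBS and 1496 ± 132 in rIL17 (SD, n = 2 per group). The log2 fold change was 2.04 (SE 0.19, 95% confidence interval 1.59 to 2.50, limma adjusted p = 0.0148). Among the 78 genes called higher, Mmp13 ranked 20 by fold change. The transcript has a GC content of 41.7%. With a correction for GC content the log2 fold change was 1.75 (limma adjusted p = 0.00124). It was also 1.75 without PBS replicate 2, a fit whose spread comes from the rIL17 libraries alone, so only its size is given. Over the 11 alternatives that kept all 4 libraries, the limma adjusted p of Mmp13 ran from 0.000175 to 0.369.

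Of the gelatinase genes, Mmp9 (ENSMUSG00000017737, chromosome 2, 164940780 to 164955850, plus strand) encodes gelatinase B, which cuts type IV collagen and gelatin. Its normalized counts were 7216.3 and 6733.1 with PBS, against 13200.1 and 11987.8 with rIL17. The groups did not overlap, and the gap between them was several times the spread within either. The means were 6975 ± 342 and 12594 ± 857 (SD, n = 2 per group), with a log2 fold change of 0.85 (SE 0.07, interval 0.68 to 1.03, limma adjusted p = 0.0118). Without PBS replicate 2 the log2 fold change was 0.80, and with the GC correction 0.96 (limma adjusted p = 0.00536 with the correction). Over the 11 alternatives that kept all 4 libraries, the limma adjusted p of Mmp9 ran from 0.000481 to 0.35. Among the genes called higher it ranked 48 of 78.

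Mmp2 (ENSMUSG00000031740, chromosome 8, 92827291 to 92853420, plus strand), which encodes gelatinase A, was hardly detected. Its normalized counts, 6.9 and 16.9 with PBS and 7.0 and 14.0 with rIL17, lay below the minimum for testing. The groups overlapped fully, and replicate 2 was the higher library in both. With the weaker filter, which let it be tested, the log2 fold change was -0.11 with an interval of -1.88 to 1.66, so a change of severalfold in either direction was not detectable at this depth. The 2 gelatinase genes thus differed widely in level, with Mmp9 at 1971 and Mmp2 at 3.526 normalized counts per kilobase of exon in PBS.

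Of the stromelysin genes, Mmp3 (ENSMUSG00000043613, chromosome 9, 7445822 to 7455975, plus strand) encodes stromelysin-1, which cuts proteoglycans, laminin and fibronectin and can activate other MMP proenzymes. It had 7174.1 and 6843.5 normalized counts in PBS and 9880.8 and 9230.8 in rIL17. Both rIL17 libraries lay above both PBS libraries, by more than the libraries of a group differed. The means were 7009 ± 234 and 9556 ± 460 (SD, n = 2 per group), with a log2 fold change of 0.45 (SE 0.06, interval 0.29 to 0.60). Its limma adjusted p of 0.0445 lay just below the threshold, and it ranked 77 of the 78 genes called higher. Without PBS replicate 2 the log2 fold change was 0.41, and with the GC correction 0.42 (limma adjusted p = 0.0118 with the correction). Over the 11 alternatives that kept all 4 libraries, the limma adjusted p of Mmp3 ran from 0.00508 to 0.369.

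Mmp10 (ENSMUSG00000047562, chromosome 9, 7502352 to 7510240, plus strand), the gene of stromelysin-2, had 233.5 and 249.6 normalized counts in PBS and 314.6 and 286.8 in rIL17. The 2 groups did not overlap, but the difference did not pass (log2 fold change 0.31, SE 0.12, interval 0.03 to 0.60, limma adjusted p = 0.264). Mmp3 and Mmp10 are close relatives. Of the stretches of 50 bases in the longest transcript, 8.39% in Mmp3 also occur in a transcript of another gene, Mmp10 or Gm15244, and 8.37% in Mmp10 also occur in Mmp3. Reads or read pairs lying wholly within shared sequence cannot be told apart, so a part of each count may be uncertain. How far the counts were affected was not tested. For Mmp13, Mmp9, Mmp2, Timp1 and Timp2 this share was 0.

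Of the membrane-type enzyme genes, Mmp14 (ENSMUSG00000000957, chromosome 14, 54431612 to 54445364, plus strand) encodes MT1-MMP, a transmembrane collagenase that also activates the proenzyme of MMP2. It had 5050.9 and 5016.7 normalized counts in PBS and 4495.5 and 4681.6 in rIL17, so that both rIL17 libraries were slightly lower. The log2 fold change was -0.13 (SE 0.06, interval -0.27 to 0.01, limma adjusted p = 0.32), and it was -0.03 with the GC correction. Mmp15 (ENSMUSG00000031790, chromosome 8, 95352268 to 95375080, plus strand), which encodes MT2-MMP, stood at 60.8 and 63.6 with PBS, against 45.2 and 54.2 with rIL17. It did not pass (log2 fold change -0.32, SE 0.22, interval -0.85 to 0.21, limma adjusted p = 0.502). The interval of Mmp15, the least abundant of the 8 tested members, was the widest of them.

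Of the inhibitor genes, Timp1 (ENSMUSG00000001131, chromosome X, 20870166 to 20874735, plus strand) encodes a secreted inhibitor that also binds the MMP9 proenzyme. It had 1356.9 and 1463.8 normalized counts in PBS and 1607.4 and 1608.7 in rIL17. The rIL17 libraries were nearly equal and both above PBS, but the difference did not pass (log2 fold change 0.19, SE 0.07, interval 0.02 to 0.36, limma adjusted p = 0.269). Corrected for GC content it was 0.29 (limma adjusted p = 0.0567, within a range of 0.0567 to 0.911 over the alternatives). Timp2 (ENSMUSG00000017466, chromosome 11, 118301069 to 118355740, minus strand), whose protein both inhibits MMPs and takes part in the activation of MMP2 by MT1-MMP, was among the members read most often. Its counts were 13881.2 and 14352.2 with PBS, against 13023.2 and 13237.4 with rIL17, a log2 fold change of -0.10 (SE 0.06, interval -0.24 to 0.03, limma adjusted p = 0.399) that was -0.003 with the GC correction.

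Timp3 (ENSMUSG00000020044, chromosome 10, 86300372 to 86349506, plus strand), which encodes a matrix-bound inhibitor, was at 2.0 and 1.0 normalized counts in PBS and 2.0 and 0 in rIL17. These values lie at or under 3 counts, the limit that a count of 0 allows, so no fold change is given. Timp1 lies within the annotated span of Syn1 and Timp3 within that of Syn3, both on the opposite strand, and Cep295nl lies in Timp2 on the same strand. Syn1 and Syn3 had 2.0 to 9.9 normalized counts in each library and Cep295nl 72.6 to 111.9. The strand setting of the counting is not given in the sources used here. The 10 genes thus held 3 that rose, 5 that were tested and did not pass, and 2 that were too low to test.

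**Figure D1:**
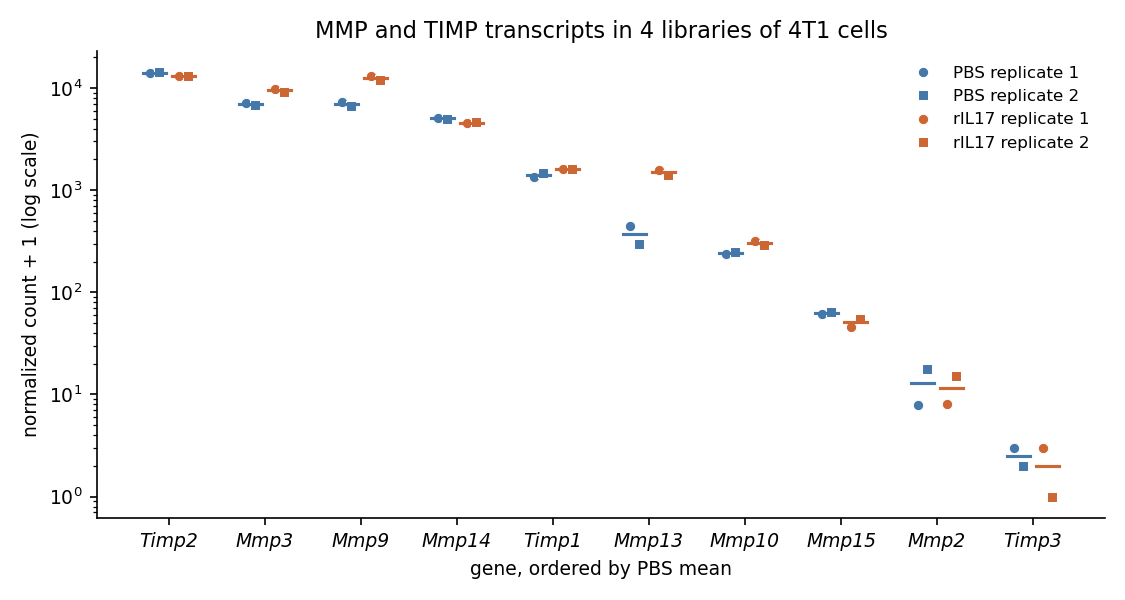
Normalized count plus 1 (log axis) of each of the 10 genes, ordered by the PBS mean; circles and squares are replicates 1 and 2, blue PBS and orange rIL17, and bars are group means. Mmp13, Mmp9 and Mmp3 stand higher in both rIL17 libraries, while Mmp2 and Timp3 lie near the bottom in all 4.

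In all 8 tested members the 2 groups did not overlap, with rIL17 above PBS in 5 and below PBS in 3. Over all genes tested, 25.8% had both rIL17 libraries above both PBS libraries and 25.4% had both below, so a gap between the groups is common in these libraries. The sizes differed widely between members: the 95% interval of Mmp13 (1.59 to 2.50) lay above that of Mmp9 (0.68 to 1.03), which lay above that of Mmp3 (0.29 to 0.60). The difference between members was not itself tested.

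**Figure D2:**
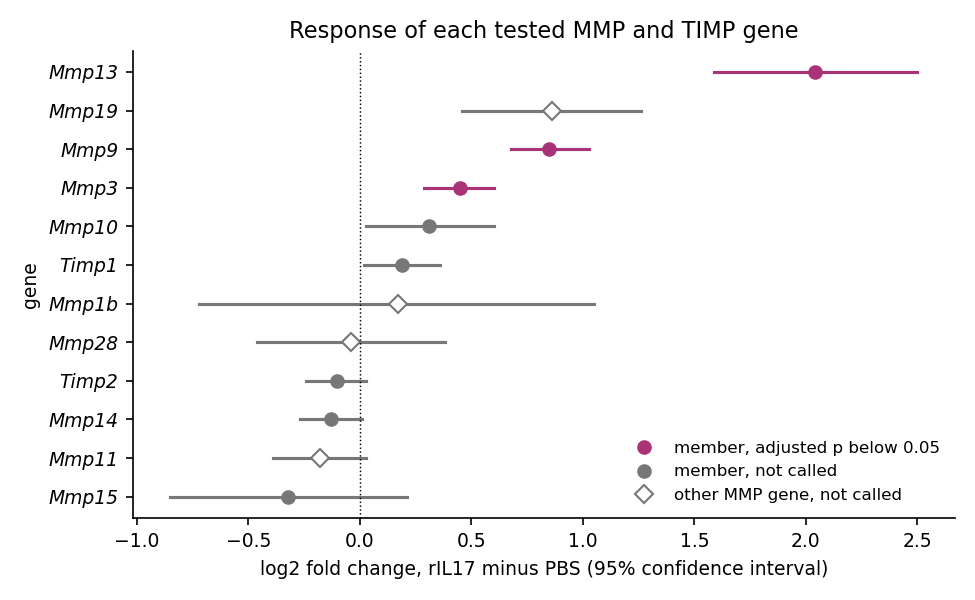
Log2 fold change, rIL17 minus PBS, with its 95% confidence interval for the 8 tested members (circles) and 4 other tested MMP genes (diamonds); purple marks an adjusted p below 0.05. Mmp13, Mmp9 and Mmp3 are purple, and the intervals of Mmp14, Mmp15 and Timp2 span 0.

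Levels of different genes can be compared only per length, here first over the summed length of all exons. In PBS the mean of Mmp3 was 3892 ± 130 normalized counts per kilobase of exon (SD, n = 2), followed by Timp2 with 3623 ± 85.5, Mmp9 with 1971 ± 96.6, Timp1 with 1588 ± 85.1 and Mmp14 with 844.6 ± 4.05. Mmp10 (140.3 ± 6.6) and Mmp13 (138 ± 38.9) came next and overlapped. Mmp15 had 11.53 ± 0.368, Mmp2 3.526 ± 2.11 and Timp3 0.1815 ± 0.084. On this length all other neighbours in the order were apart in the PBS libraries.

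In rIL17 the order of the upper genes changed in 1 place and that of the middle genes in another. Mmp3 stood at 5306 ± 255, and Mmp9 with 3559 ± 242 came level with Timp2 at 3370 ± 38.9, with overlapping libraries. Mmp13, with 559.6 ± 49.5, lay above Mmp10 with 174.6 ± 11.4 and apart from it. Mmp14, at 769.9 ± 22.1, remained above Mmp13. Several of these positions depend on the length used. With the longest transcript in place of all exons, Mmp3 (3983 and 3800) and Timp2 (3743 and 3870) overlapped in PBS, as did Timp1 (1537 and 1658) and Mmp14 (1560 and 1549). In rIL17, Mmp9 (4158 and 3776) then lay above Timp2 (3511 and 3569) and apart from it. Mmp3 was the highest in both rIL17 libraries by either length.

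Summed per kilobase, the 7 MMP genes held 7184 and 6816 under PBS, against 10758 and 10004 under rIL17. The 3 TIMP genes held 5091 and 5332 with PBS, against 5153 and 5209 with rIL17, so the TIMP sums of the groups lay within the same range while the MMP sums were apart. The ratio of the sums was 1.41 and 1.28 with PBS, against 2.09 and 1.92 with rIL17. Within the MMP sum, Mmp9 made up 28.4% and 27.9% with PBS, against 34.7% and 33.9% with rIL17, and Mmp13 went from 2.3% and 1.62% to 5.53% and 5.24%. Mmp3 remained the largest contributor, with 55.4% and 55.7% under PBS, against 51% and 51.2% under rIL17, and Mmp14 made up 11.8% and 12.3% in PBS and 7.01% and 7.85% in rIL17. All these sums, ratios and shares use the summed exon length. With the longest transcript the PBS mean of Mmp14 was 1555 in place of 844.6, so they would differ. These sums are of RNA and say nothing about the amount or activity of the proteins.

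**Figure D3:**
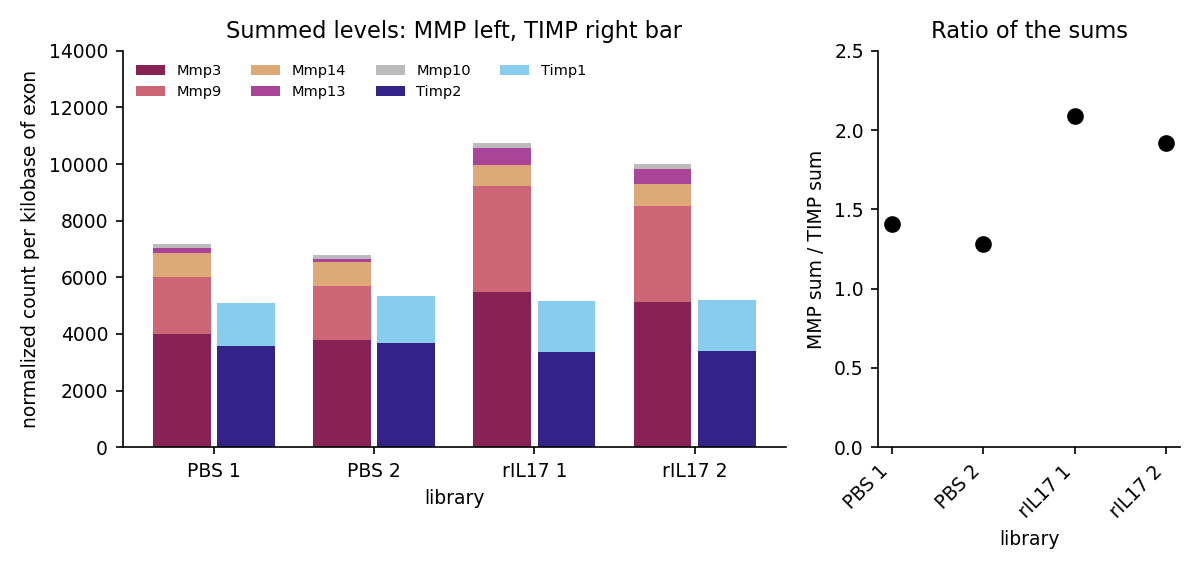
Left, normalized counts per kilobase of exon in each library. Left bars stack the 5 most abundant MMP genes of the set, and right bars stack Timp2 and Timp1. Right, the ratio of the MMP sum to the TIMP sum over all 10 genes. The ratio is 1.28 to 1.41 in PBS and 1.92 to 2.09 in rIL17, with TIMP bars of like height throughout.

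Mmp13, Mmp3 and Mmp10 share a cluster of 10 MMP genes that spans 427 kilobases of chromosome 9 (mm10, 7272514 to 7699585). Of these 10 genes, 6 were in the table, 4 were tested and 2 were called, Mmp13 at one end and Mmp3 in the middle. Mmp1b, an interstitial collagenase gene of the cluster, had 29.4 and 17.9 normalized counts in PBS and 29.2 and 23.1 in rIL17 (log2 fold change 0.17, interval -0.72 to 1.05). Mmp12, the macrophage elastase gene, and Mmp1a were too low to test, with 0 to 4.0 and 6.0 to 14.7 normalized counts. The annotated ends of Mmp12 and Mmp1b overlap on opposite strands. Within 500 kilobases of the cluster, 8 other genes were tested and 0 called by limma, against 0.807% called over all genes tested. With so small a share, 0 of 8 does not set these genes apart. Their log2 fold changes ran from -0.28 to 0.29, with a median of 0.10.

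**Figure D4:**
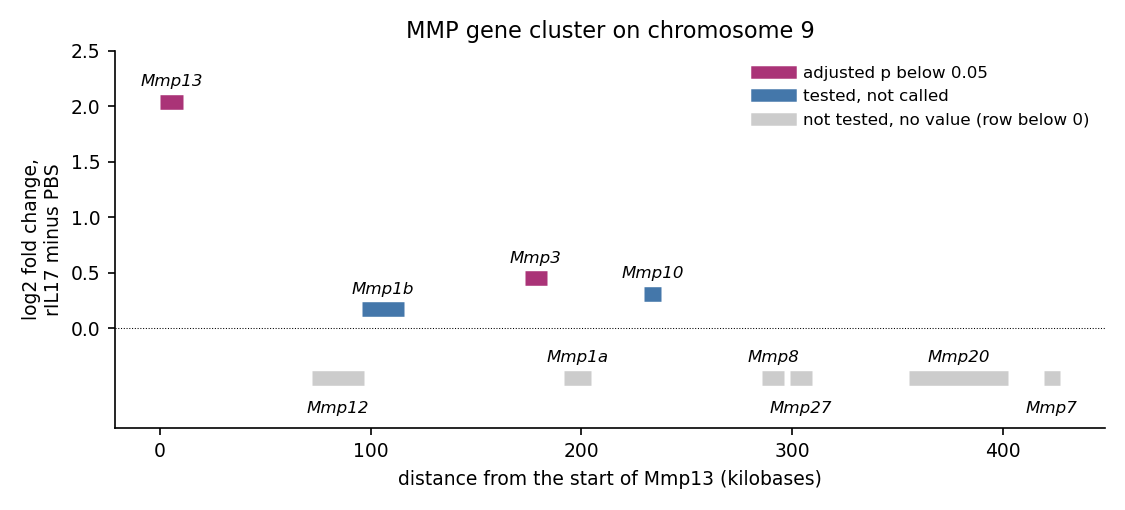
Log2 fold change, rIL17 minus PBS, of the MMP genes of the chromosome 9 cluster against the distance from the start of Mmp13 in kilobases; bars span each gene, purple marks an adjusted p below 0.05 and grey genes were not tested. Mmp13 lies at 2.04, Mmp3 at 0.45 and Mmp10 at 0.31.

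Of 17 further MMP and TIMP genes, 10 were in the table and 4 were tested. By limma 0 of the 4 were called, against 0.807% of all genes tested, and 1 had an unadjusted p below 0.05. In 5 of the 15 alternatives 1 of the 4 was called higher. The gene with the unadjusted p below 0.05 was Mmp19, a widely expressed secreted MMP, with 81.4 and 72.6 normalized counts in PBS and 145.8 and 135.4 in rIL17. Its log2 fold change of 0.86 (SE 0.17, interval 0.46 to 1.26, limma adjusted p = 0.0915) was close in size to that of Mmp9. Mmp11, the stromelysin-3 gene, stood at 709.4 and 737.8 with PBS, against 613.2 and 663.9 with rIL17 (log2 fold change -0.18, limma adjusted p = 0.358). Mmp28, the epilysin gene, had a log2 fold change of -0.04 (limma adjusted p = 0.926). Mmp17, Mmp21, Mmp23 and Mmp24 had at most 16.9 normalized counts in any library.

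By the distance between profiles over the 4 libraries, the genes most like Mmp9 among 12507 others were Csf3, Mmp19 and Rap2c, with root mean square distances of 0.023, 0.026 and 0.028 log2 units. Csf3, which encodes the granulocyte growth factor G-CSF, had 4818.4 and 4703.5 normalized counts in PBS and 8978 and 8200.8 in rIL17. Those most like Mmp13 were Zfp808, Gm3604 and Zfp946, at distances of 0.020, 0.060 and 0.061. All 3 had few counts, 11.9 to 32.4 in PBS and 65.2 to 114.6 in rIL17, and low GC contents of 36.1% to 36.9%. They had more counts in PBS replicate 1 than in replicate 2, as Mmp13 did. Zinc-finger genes have close copies that can share reads. The part of the GC content in this likeness was not tested. A distance over 4 libraries mostly reflects the fold change, so close matches among 12507 genes show a like fold change and no more.

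Of the proteases that activate MMP proenzymes, 5 were tested, 0 were called higher and 1 lower by limma. Negative log2 fold changes were seen in 4, and the median over the 5 was -0.29. Over all genes tested, 0.623% were called higher, 0.184% were called lower and 50.7% had negative log2 fold changes. Plau, encoding the urokinase plasminogen activator, fell from a mean of 4661 ± 136 with PBS to 3277 ± 81.9 with rIL17 (normalized counts, SD, n = 2; log2 fold change -0.51, limma adjusted p = 0.0353). The PBS libraries had 4565.3 and 4757.2, and both rIL17 libraries were lower, at 3218.9 and 3334.7. Plat, encoding the tissue-type activator, and Pcsk6, a proprotein convertase gene, did not pass (log2 fold changes -0.35 and -0.29). Pcsk7, another convertase gene, had -0.08.

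Among inhibitors, clearance receptors and surface partners of MMPs and TIMPs, 2 of 15 tested genes rose and 0 were called lower by limma. Over all genes tested, 0.623% were called higher and 0.184% lower. The list had a median log2 fold change of 0.04. In 10 of the 15 alternatives 1 gene of this list was called lower. Lcn2, encoding lipocalin-2, whose human protein forms a complex with MMP9, rose 3.36-fold from 8473 ± 35.7 to 28464 ± 521 normalized counts (limma adjusted p = 0.000332). Serpine2, encoding the serine protease inhibitor nexin-1, rose 1.45-fold from 11821 ± 529 to 17138 ± 294 (limma adjusted p = 0.0278). Thbs1, encoding thrombospondin-1, had a log2 fold change of -0.39 (limma adjusted p = 0.055) and Cd44, a hyaluronan receptor that can dock MMP9, 0.19 (limma adjusted p = 0.267).

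Among genes of matrix proteins that MMPs cut, 16 of 22 tested (72.7%) had negative log2 fold changes, against 50.7% of all genes tested, with a median of -0.08. In 12 of the 22 (54.5%) the groups did not overlap, with rIL17 lower, against 25.4% of all genes tested. Across all tested genes, the median log2 difference of rIL17 from PBS ran from 0.54 under 40% GC to -0.07 at 60% or more. The part of the GC content in the shares of this list was not tested. By limma 0 were called higher, against 0.623% of all genes tested. Among the alternatives that kept all 4 libraries, only those with the replicate block alone called any higher (2). Dcn, encoding the proteoglycan decorin, did not pass, with 26.5 and 17.9 under PBS against 62.3 and 46.1 under rIL17 (log2 fold change 1.26, limma adjusted p = 0.154). Spp1, the osteopontin gene, and Sparc, encoding osteonectin, had 0.27 and -0.21 and did not pass.

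Of 13 tested ADAM, ADAMTS and astacin metalloproteinase genes, 0 were called by limma (up to 3 higher in 5 of the 15 alternatives and up to 3 lower in 2), with 6 positive and 7 negative log2 fold changes and a median of -0.01. The 4 with the smallest p, all unadjusted p below 0.05, were Adam8 (0.43), Adamts9 (-0.35), Adam9 (0.30) and Bmp1 (-0.23). Of 23 transcription factor genes known to act on MMP promoters, all tested, 2 rose and 0 were called lower by limma (1 or 2 in 3 of the 15 alternatives), with a median of 0.03. Cebpd, encoding C/EBP delta, rose 2.49-fold from 959.9 ± 68.5 to 2387 ± 77 normalized counts (limma adjusted p = 0.00547). Nfkbiz, encoding IkB-zeta, rose 1.5-fold from 1977 ± 62.8 to 2967 ± 217 (limma adjusted p = 0.0379). Stat3 had a log2 fold change of 0.43 and lay just above the threshold (limma adjusted p = 0.0545). Fosl1, a Jun partner in AP-1, had -0.28 and did not pass (limma adjusted p = 0.107). Over the 11 alternatives that kept all 4 libraries, 0 to 4 of the 23 factor genes were called higher. Over the 6 lists together, 4 of 82 tested genes were called higher and 2 lower. The shares over all genes tested, to set beside the counts of each list, were 0.623% higher and 0.184% lower.

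Epithelial keratin genes were abundant in all 4 libraries, with Krt8 at 25497.6 to 32665 and Krt18 at 15965.6 to 20159.4 normalized counts, while the adhesion genes Cdh1 and Epcam had 139.4 to 208 and 76.6 to 135.4. The 8 epithelial markers summed to 53749 to 57978 in PBS and to 45758 to 47812 in rIL17. By limma 0 of 7 tested were called, against 0.807% of all genes tested. Markers of other cell types that could carry MMP RNA were mixed in level. The leukocyte gene Ptprc was at 0 in PBS and at 3.0 and 2.0 in rIL17, the macrophage gene Csf1r had at most 4.0 and the fibroblast collagen gene Col1a2 at most 2.0, while Col1a1 had 29.2 to 51 and Dcn 17.9 to 62.3. The 6 fibroblast markers in the table, of 9, summed to 2446 to 2555 in PBS and to 2969 to 2973 in rIL17, nearly all from Pdgfra, which had 2328.3 to 2862.3. Macrophage markers (6 of 8) summed to 130 to 134 and to 138 to 150, mostly from Cd68. Neutrophil markers (4 of 8) summed to 15 to 16 and to 18 to 39, and endothelial markers (4 of 6) to 9 to 10 and to 10 to 12. The part of these shifts in the MMP values was not tested.

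**Figure D5:**
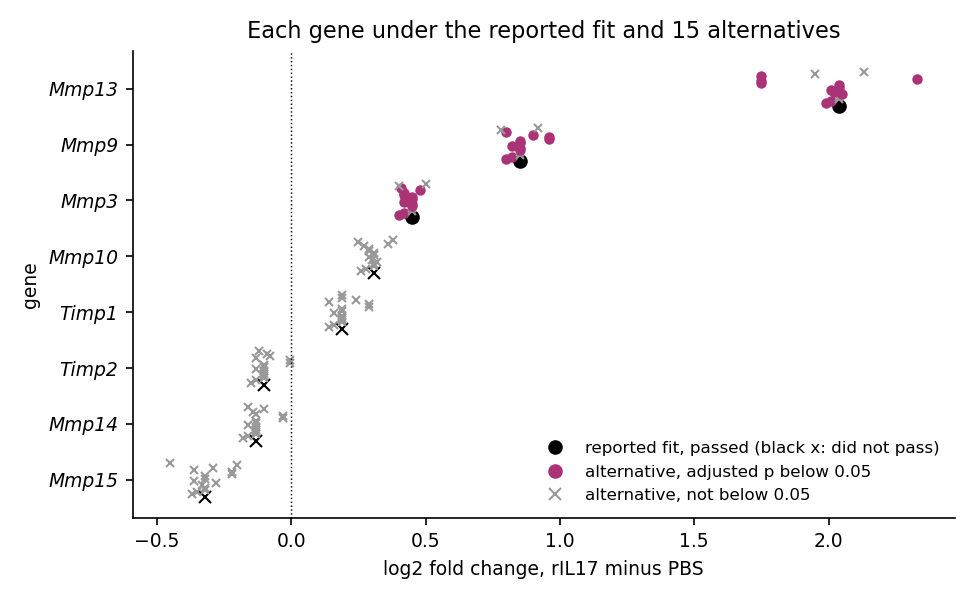
Log2 fold change, rIL17 minus PBS, of each of the 8 tested genes under the reported fit (black) and 15 alternatives (purple, adjusted p below 0.05; grey cross, not below 0.05), spread vertically for legibility. Mmp13 runs from 1.75 to 2.33, Mmp9 from 0.78 to 0.96 and Mmp3 from 0.40 to 0.50 over the 15. Each was called in 9 of the 11 alternatives that kept all 4 libraries.

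With either rIL17 library left out, the log2 fold changes of Mmp13, Mmp9 and Mmp3 stayed near 2.04, 0.85 and 0.45, those of the reported fit. Without rIL17 replicate 1 they were 1.95, 0.78 and 0.40, and without rIL17 replicate 2 they were 2.13, 0.92 and 0.50. Neither fit kept these calls. A group of 1 library is assumed to vary like the other group, so the spread in these fits came from the PBS libraries alone. The lost calls therefore cannot show how far the calls depended on either rIL17 library.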

How the data were processed

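Tools named in the submitters' processing notes are CASAVA, HISAT2 2.0.5 and featureCounts 1.5.0-p3, with build mm10. The deposited signal values are whole multiples of 1 step per library (100% within 0.001), so they were read as gene counts that had been divided by a size factor. The annotation release, strand setting and scaling tool were not given in the sources used here. Libraries were directional, per the labels' protocols.

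Symbols were matched for 21819 of 21840 genes, and coordinates, lengths and GC content are from GENCODE M21 (mm10). The filter kept 12515 genes, those reaching 10 normalized counts in both libraries of either group with a mean CPM of at least 1. Their log2(normalized count + 1) values entered limma 3.58.1, run in R 4.3.3, with a mean-variance trend and treatment as the only term. Fold changes are on that scale, which understates changes of low genes; folds in words are ratios of group means. This filter was set knowing that an earlier pass over these data, with a minimum mean of 1, had called no gene. The fit was tested on simulated data first. The result of 1 gene of the list of matrix proteins is not reported here.

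The members, the lists and the filter were chosen with earlier results of these data known. Named are all members, every other MMP or TIMP gene in the table, up to 4 genes per list with the smallest p, and the 3 genes most like Mmp13 and Mmp9. Overlapping and cluster genes and the markers given as examples were named after their values were seen. Depth of 17511450 to 17970104 reads puts the limit of a count of 0 at 3 reads per library, for counting error only. Alternatives were other scalings, filters, pseudocounts (0.1 and 10), limma-voom, robust shrinkage, the replicate number as a block, a loess GC correction and each library left out.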

Additional observations from a re-analysis of the deposited data

How the results depend on the processing

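All 8 tested members kept their direction in all 15 alternatives that were run, and the 5 that did not pass stayed so. For most of these fits the kept direction was fixed beforehand. The groups did not overlap in any of the 8, so leaving out 1 library could not change a direction. The filters, robust shrinkage and the replicate block do not alter the fold change of a gene. The call ended for Mmp13 (log2 fold change 2.04), Mmp9 (0.85) and Mmp3 (0.45), so that 0 members were called, with no filter (limma adjusted p = 0.35 for each) and with a minimum mean of 1 (0.369, 0.337 and 0.369). These filters add genes near 0 to the fit, and limma then called 0 genes in all and 0 of the related lists, with 2739 and 2642 at an unadjusted p below 0.05. With 1 library left out, Mmp13 ran from 1.75 to 2.33, Mmp9 from 0.78 to 0.92 and Mmp3 from 0.40 to 0.50, and 0 to 3 members were called. Leaving out 1 library gave 1 to 2056 genes higher and 0 to 717 lower, and in the related lists 1 to 19 and 0 to 10. Without PBS replicate 1, 2056 and 717 were called, without PBS replicate 2, 557 and 135, and without either rIL17 library 1 and 0.

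Against 78 genes higher and 23 lower, upper-quartile scaling gave 121 and 47, limma-voom 144 and 47, and the GC correction 192 and 91. Scaling to equal totals gave 41 lower and robust shrinkage 38. The cause was not tested. In the related lists the GC correction called 7 higher. With the replicate block, 877 genes were higher and 155 lower, and in the related lists 12 and 7. With the GC correction and the replicate block together, 262 and 166 were called, and 9 higher in the related lists. The 1 call among the other MMP and TIMP genes arose with the GC correction, the replicate block, both together and without either PBS library. The block changed no call of a member (limma adjusted p = 0.000175, 0.000481 and 0.00508 for Mmp13, Mmp9 and Mmp3). Same-numbered libraries deviated from their group means with a correlation of 0.157 across 12515 genes. With 2 pairs, this does not show that the numbers pair the samples. The 2 planned count-model tests were left out. The values are whole multiples of 1 step, but steps of 0.9811 to 1.0053 lie too close to 1 for the criterion used here to accept them as recovered reads.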
